A study of Mus musculus with 4 samples.

Results

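The chromatin regulator genes described here are those named Kmt, Kdm, Setd, Chd, Arid, Hdac, Kat, Brd, Ehmt, Dnmt or Tet followed by a number, or Smarca to Smarce, and every row of the deposited peak table with such a gene name was taken. They gave 557 peaks in 89 genes, of 33977 peaks in 10415 genes. Because peaks had been called in each condition and stacked, 263 of the 557 rows came from the TBI peak set and 294 from the sham set, and rows that overlapped by at least 1 base formed 336 clusters. The peaks were measured by MeRIP-seq, which sequences the RNA fragments bound by an antibody against N6-methyladenosine (m6A). The groups were 2 libraries from cerebral cortex of mice with repetitive mild traumatic brain injury, labelled TBI, and 2 from sham mice, and all 4 carry the label of the same anti-m6A antibody. Strain, age, sex, injury protocol and time after injury are not stated, nor whether the libraries came from separate animals, so the p-values measure only the spread between libraries, which may be technical. In each group the libraries are numbered 1 and 0, and what the numbers stand for is not stated either. The log2 values in the authors' deposited table take the form of number 1 over number 0 in TBI divided by number 1 over number 0 in sham, which is the form used where 1 library of each pair is an input without antibody. The label goes against this and the counts do not settle it, so a library number may be a replicate or a kind of library, and the number is used below as a label only. If it is a kind of library, each group holds 1 library of each kind, and the spread within a group is not a replicate spread. The group has no marker list of its own, so the label rests on gene names.

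Chromatin regulators write, erase and read chemical marks on histones and DNA, or slide and evict nucleosomes with the energy of ATP. Many of them are large proteins encoded by long transcripts, and inherited mutations in several of them, among them CHD8, ARID1B, KMT2A and DNMT3A, cause disorders of brain development in humans. m6A is a methyl mark placed on RNA by the METTL3 and METTL14 complex, mostly in long internal exons and near stop codons, and it affects the stability, export and translation of the transcript. No library is labelled as input, so a higher count at a peak does not separate more methylation from more transcript. In tissue, fewer cells of a type and less RNA per cell cannot be told apart either.

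m6A is placed within a short sequence context whose core is commonly GGAC. That word was searched for where a peak of under 1000 bases could be read in the sequences at hand. These are the RefSeq windows from 250 bases before to 50 bases after each gene's start (GRCm38.p6). Peaks on 1 autosome were left out of the search. Of the 67 genes with such a window, counted on all chromosomes, 6 had a searched peak in it. The word was found on the gene strand inside the peak only in Hdac8, which encodes a zinc-dependent histone deacetylase on the X chromosome. The Hdac8 peak at chrX:102505031-102505359 on the minus strand holds the word at a pair of sites, shown here in capitals in 30 bases of the gene strand (chrX:102505209-102505238).
Hdac8: catccctgtagttGGACgagGGACcaggga
The first of these words begins at position -67 relative to the RefSeq start of the gene, although the authors classed the peak as coding, and the transcript start in the authors' annotation was not looked up. The peak had 8.13 and 5.91 CPM (counts scaled with edgeR to a library's total over peaks) in TBI libraries 1 and 0, against 5.19 and 6.20 CPM in sham libraries 1 and 0. The groups overlapped. GGAC stood on the gene strand of 65.6% of the 32851 RefSeq windows of that length and on either strand of 87.7%, so its presence in a whole window is common. In the 50 bases after the start alone, it stood on the gene strand of 18.9%. In the other 5 genes, Arid1b, Hdac6, Kat7, Kat8 and Kdm5c, the stretch of peak inside the window did not hold these letters. These stretches were shorter than a window, at 50 to 126 bases.

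Chromatin regulator genes held more peak rows per gene than genes at large, and the rows lay mostly in coding sequence. Rows of both peak sets are counted, and transcript length was not taken into account. The genes had a median of 5 peak rows each, against 2 over all genes. Kmt2d had 21, Kmt2a 20 and Kmt2c 18, and these encode very large methyltransferases of lysine 4 of histone H3. Setd2, which encodes the enzyme that trimethylates lysine 36 of histone H3, had 17, and 6 genes had 1. By the authors' classes, 417 peaks (74.9%) were coding, 126 (22.6%) were in the 3′ UTR, 13 (2.33%) in the 5′ UTR and 1 in the class NP_exon, whereas over all peaks 50.4% were coding, 39.7% in the 3′ UTR and 6.24% in the 5′ UTR. Spans were long as well. A span of over 5000 bases, introns included, was listed for 84 member peaks (15.1%), against 10.3% of all peaks, and a span of up to 500 bases for 256 (46.0%), against 65.1%.

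Most genes were found in both peak sets. Peaks of 82 genes were called in TBI and in sham, those of Kat2a and Kdm1a only in the TBI set, and those of Brd7, Hdac2, Kdm4c, Kdm4d and Kdm6bos only in the sham set. Reads were counted in all 4 libraries for either set, so presence in 1 set does not mean that the other group lacked counts. Kdm1a, for instance, had 29.4 and 54.3 CPM in TBI libraries 1 and 0, against 30.1 and 59.0 CPM in sham libraries 1 and 0. Why a peak was called in 1 set only was not tested. In all, 419 of the 557 rows (75.2%) overlapped a row of the other set, against 67.4% of all peaks. On a list of 102 mouse genes of these families drawn up to assign roles, 87 had a row, and those with none in the table used here include Smarcb1, Hdac3, Dnmt3b and Kat5.

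Some rows are uncertain. Chd3 lies on the minus strand, but 2 of its 12 rows are listed on the plus strand inside its own coding peaks, and the larger of these had 574 and 535 CPM in TBI libraries 1 and 0, beside 607 and 566 CPM at the minus-strand row that spans it. Kdm6bos, an antisense transcript of the H3K27 demethylase gene Kdm6b, had 6.80 and 8.11 CPM in TBI libraries 1 and 0 at a peak that covers a Kdm6b peak with 6.73 and 7.73 CPM. Whether counting used strand is not given, so reads of such pairs cannot be told apart. Setd7 has a row on the opposite strand too, and 3 rows named Chd1 at chr17:17385603-17389985 lie 1612991 bases from the RefSeq span of Chd1, inside Riok2. Kdm5c on the X and Kdm5d on the Y chromosome are close paralogs that can share reads.

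The libraries numbered 1 had the higher counts over peaks. Total counts over peaks were 26888072 and 13753600 in TBI libraries 1 and 0, against 26356562 and 14437317 in sham libraries 1 and 0. Of the member peaks, 550 in 88 genes passed the filter on low counts, and 532 had at least 10 counts in every library. The 7 peaks left out belonged to Arid1b, Arid2, Arid3a, Brd3, Kdm4d, Smarcc2 and Tet1, with 0 to 28 counts in a library. Levels are given as CPM after scaling by the trimmed mean of M-values (TMM) and, since spans include introns and cannot be set per length, are compared only between libraries at the same peak.

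The comparison the labels give is TBI against sham, which asks whether the m6A signal of these transcripts differs after injury. No chromatin regulator peak passed the test. With edgeR's quasi-likelihood test and Benjamini-Hochberg adjustment over 33415 peaks, 0 of 550 had an adjusted p under 0.05, against 29 of all peaks (0.0868%), and DESeq2 likewise called 0. At an unadjusted p under 0.05, 0 were higher in TBI and 1 was lower (0.182%), where 0.73% of all peaks were higher and 2.11% lower. The log2 fold change of TBI over sham was above 0 at 385 of the 550 peaks (70%), against 52.6% of all peaks, and the median was 0.08, against 0.02 over all peaks. Library 1 against library 1 gave a median of 0.06, and library 0 against library 0 a median of 0.07. Both TBI libraries lay above both sham libraries at 82 peaks (14.9%) and below them at 26 (4.73%), where 12.3% of all peaks did each. The fit with the library number as a block leaves 1 residual degree of freedom. It called 36 member peaks higher (6.55%, against 5.42% of all peaks) and 10 lower (1.82%, against 5.22%). Neighbouring rows share reads, and these shares are descriptions of the rows and not tests.

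**Figure D1:**
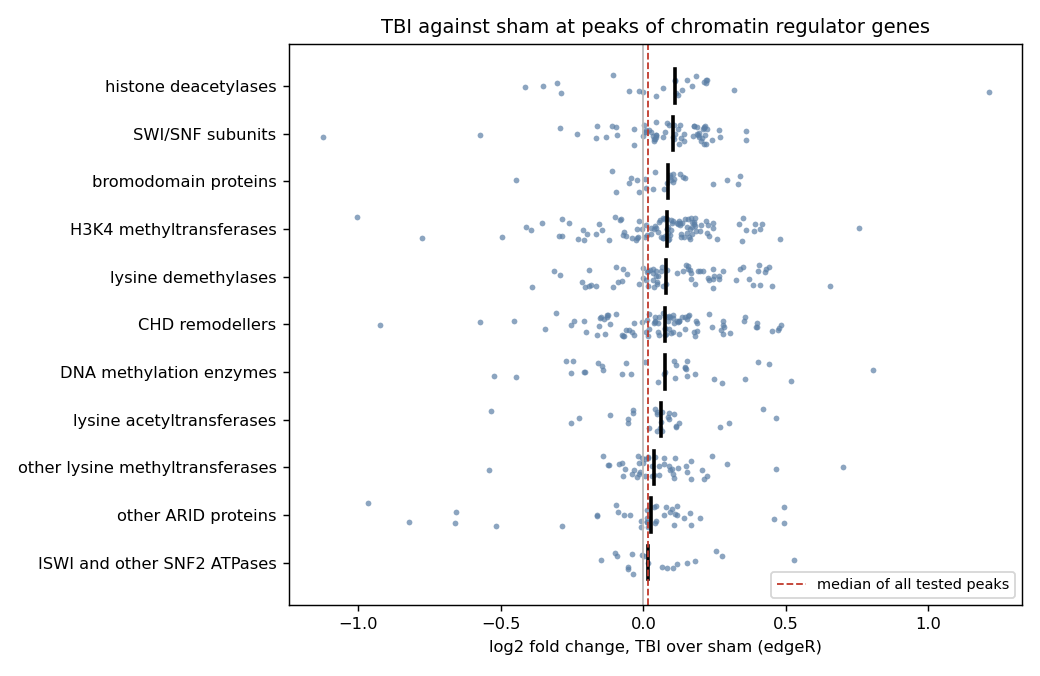
Log2 fold change of TBI over sham (horizontal axis, edgeR) at each tested peak of the chromatin regulator genes, in rows by role; each point is 1 peak, each black bar the median of a group, and the dashed line the median of all tested peaks (0.02). Group medians lie between 0.01 and 0.11, and single peaks spread to both sides of 0 in every group.

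Markers of other regions and cell types differed between the groups, and these values stand beside every comparison of TBI with sham. Summed over the 8 thalamic marker genes, the TBI libraries had 171 and 145 CPM, against 844 and 742 CPM in the sham libraries, and all 32 thalamic peaks were below sham, with a median log2 of -2.21 and 10 peaks called. Oligodendrocyte markers summed to 626 and 784 CPM in TBI, against 994 and 1199 CPM in sham, with 6 of 7 genes measured. Striatal markers summed to 648 and 660 CPM in TBI, against 1225 and 1213 CPM in sham (5 of 6 genes), and choroid plexus and ependymal markers to 15.0 and 14.4 CPM, against 53.3 and 48.6 CPM (4 of 6 genes). Cortical excitatory neuron markers went the other way, with 592 and 518 CPM in TBI, against 405 and 359 CPM in sham (6 of 6 genes). Microglial markers had 50.5 and 50.4 CPM, against 44.2 and 37.8 CPM (5 of 6 genes), and astrocyte markers 1375 and 1387 CPM, against 1273 and 1280 CPM (4 of 5 genes). Each pair gives library 1 first. Gfap, Ttr, Folr1, C1qb, Mag and Tac1 had no peak in the table used here. The part of these shifts in the values of the chromatin regulators was not tested.

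The only member at an unadjusted p under 0.05 was Arid5a, which encodes an RNA-binding and DNA-binding protein known for stabilizing inflammatory transcripts in immune cells. Its coding peak at chr1:36318174-36318631 had 2.45 and 2.88 CPM in TBI libraries 1 and 0, against 3.84 and 6.63 CPM in sham libraries 1 and 0. Both TBI libraries lay below both sham libraries. The log2 fold change was -0.97 (SE 0.36), with an unadjusted p of 0.0302 and an adjusted p of 1 in edgeR. The same direction held at the other rows of the gene. All 6 Arid5a peaks, in 5 overlap clusters, had a log2 fold change between -0.97 and -0.28, with no overlap of the groups at 3 of them.

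Among the CHD remodellers, ATPases that move nucleosomes, Chd5 stood on the higher side throughout. CHD5 is a subunit of the NuRD complex that is expressed mainly in neurons. All 9 of its tested peaks, in 7 overlap clusters, had a log2 fold change of TBI over sham between 0.35 and 0.48. At 6 of them both TBI libraries lay above both sham libraries. Its coding peak at chr4:152356731-152358610 had 49.7 and 61.3 CPM in TBI libraries 1 and 0, against 37.5 and 42.3 CPM in sham libraries 1 and 0 (log2 0.48, SE 0.25, unadjusted p 0.0988 in edgeR). Its longest peak, at chr4:152338919-152356132, had 277 and 296 CPM in TBI, against 224 and 224 CPM in sham. Neither pair of groups overlapped. The first of these peaks was not called as tested above. With the library number as a block, which leaves 1 residual degree of freedom, it was called (adjusted p = 4.02e-07 in edgeR). Chd3, another NuRD ATPase, had log2 values between 0.02 and 0.19 at its 12 peaks, and its strongest peak, at chr11:69363729-69369406, had 607 and 566 CPM in TBI, against 558 and 534 CPM in sham. Chd4, the main NuRD ATPase, was below 0 at 6 of its 7 peaks, which form 4 overlap clusters. Its first coding peak had 130 and 142 CPM in TBI, against 146 and 151 CPM in sham. Chd7, mutated in CHARGE syndrome, was below 0 at 10 of its 12 peaks, which form 8 overlap clusters.

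**Figure D2:**
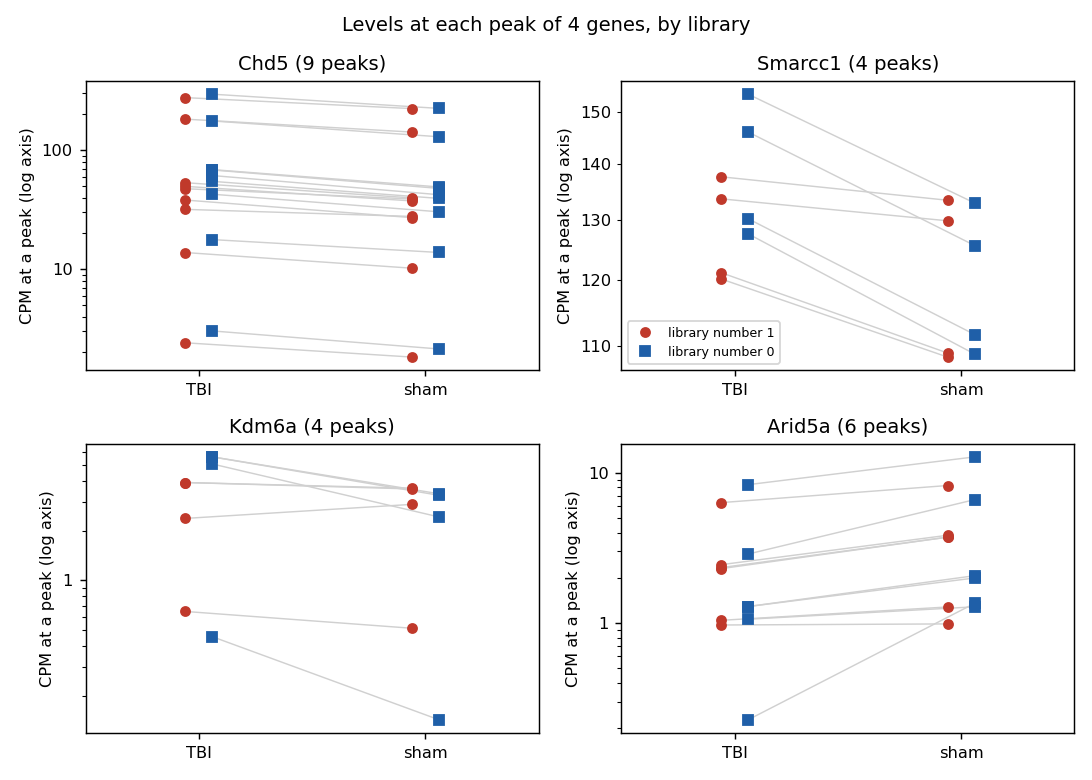
CPM (log axis) at each tested peak of Chd5, Smarcc1, Kdm6a and Arid5a in TBI and sham libraries, which were chosen after their values were seen; red circles are libraries numbered 1, blue squares libraries numbered 0, and grey lines join the same peak in libraries of the same number. The lines of Chd5 and Smarcc1 descend from TBI to sham at every peak, those of Arid5a ascend, and Kdm6a has 1 ascending line.

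Subunits of the SWI/SNF complex, which opens chromatin at enhancers, were above 0 at 52 of 64 peaks, with a median log2 of 0.11 and 0 calls. Of all member peaks 70% were above 0 (median 0.08), and of all peaks 52.6% (median 0.02). Smarca2, which encodes the BRM ATPase, had all 9 of its peaks, in 5 overlap clusters, between 0.14 and 0.22. Its coding peak at chr19:26649021-26671108 had 417 and 533 CPM in TBI libraries 1 and 0, against 363 and 455 CPM in sham libraries 1 and 0. There the spread between the numbers exceeded that between the groups. Smarcc1, a core scaffold of the complex named here after its values were seen, had 4 of 4 peaks with no overlap of the groups, although by a small margin. The 4 rows of Smarcc1 form 2 overlap clusters and share reads. Its peak at chr9:110157310-110182969 had 138 and 154 CPM in TBI, against 133 and 133 CPM in sham (log2 0.13, SE 0.22). The lowest of the group was a 3′ UTR peak of Arid1b, a subunit of the canonical complex, with 0.576 and 0.303 CPM in TBI, against 0.549 and 1.57 CPM in sham, and there the groups overlapped. Smarcad1, an ATPase outside this complex, had a coding peak with 3.60 and 5.61 CPM in TBI, against 3.40 and 2.85 CPM in sham (log2 0.53, SE 0.34).

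The enzymes that write and erase histone and DNA methylation had no peak called either. Among lysine demethylases, 53 of 71 peaks were above 0 (median 0.08), where 70% of all member peaks and 52.6% of all peaks were. Kdm6a, which removes methyl groups from lysine 27 of histone H3 and is X-linked, had all 4 peaks, in 3 overlap clusters, between 0.43 and 0.65. Its peak at chrX:18250816-18251027 had 3.92 and 5.61 CPM in TBI libraries 1 and 0, against 3.58 and 3.28 CPM in sham libraries 1 and 0, with a log2 fold change of 0.45 and an SE of 0.32. Among H3K4 methyltransferases, 75 of 106 were above 0 (median 0.08), against the same shares. Setd1a, a catalytic subunit of the COMPASS complex, had 8 of its 9 peaks, which form 4 overlap clusters, below 0. Its 5′ UTR peak at chr7:127776699-127777029, 360 bases outside the RefSeq span of the gene, had 1.37 and 0.986 CPM in TBI, against 2.08 and 2.78 CPM in sham (log2 -1.01, SE 0.45, unadjusted p 0.0568 in edgeR). Setd3, which methylates a histidine of actin, had 3 of 3 peaks, in 2 overlap clusters, lower without overlap of the groups. Its 3′ UTR peak had 8.09 and 9.02 CPM in TBI, against 10.7 and 14.2 CPM in sham (log2 -0.54, SE 0.27). Tet3, a dioxygenase that oxidizes 5-methylcytosine in DNA and is the most abundant TET enzyme in neurons, had a coding peak at chr6:83369060-83369481 with 9.35 and 10.4 CPM in TBI, against 6.77 and 6.99 CPM in sham (log2 0.52, SE 0.25).

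Readers and acetylation enzymes had 0 peaks called. Brd3, a BET protein that binds acetylated histones, had all 3 tested peaks between 0.30 and 0.34 with no overlap of the groups. The 4 rows of Brd3, 1 of them not tested, form 2 overlap clusters. Its peak at chr2:27448294-27454360 had 88.0 and 108 CPM in TBI libraries 1 and 0, against 78.5 and 76.1 CPM in sham libraries 1 and 0 (SE 0.24). Hdac9, a class IIa deacetylase, had all 3 peaks, in 2 overlap clusters, between -0.35 and -0.29. Its coding peak at chr12:34431950-34437187 had 51.1 and 55.9 CPM in TBI, against 58.9 and 73.2 CPM in sham (SE 0.25). Kat8, the acetyltransferase of lysine 16 of histone H4, had 5.22 and 3.41 CPM in TBI, against 3.99 and 2.21 CPM in sham at its peak by the gene start (log2 0.47, SE 0.39), where the groups overlapped. Across genes, 37 had all tested peaks above 0, 9 had all below, and 42 had both signs. The same count was not made over all genes, where 52.6% of peaks were above 0. Rows of a gene can share reads, so their signs are not independent.

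Single libraries weighed on these log2 values, none of which was called without the block. With it, on 1 residual degree of freedom, the adjusted p in edgeR was also under the threshold at the peaks of Arid5a (0.00934), Tet3 (0.0360), Brd3 (1.6e-05), Hdac9 (0.00176) and Setd3 (0.0148). Without TBI library 0, the log2 fold change was 0.30 at the Chd5 peak, 0.18 at Smarcad1, 0.17 at Brd3, 0.17 at Kdm6a and 0.70 at Kat8. Without TBI library 1, it was 0.83 at Smarcad1, 0.70 at Kdm6a, 0.11 at Kat8 and -1.71 at Arid1b, where all libraries together gave -1.13. Without sham library 0, it was -0.55 at Arid5a, -0.27 at Arid1b, -0.15 at Hdac9, -0.34 at Setd3 and 0.12 at Kat8. Without sham library 1, it was 0.98 at Kat8 and -1.75 at Arid1b. The sign was the same in each of these fits.

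A second list of chromatin genes outside the naming rule (Polycomb, other remodellers, co-activators and co-repressors, methyl-DNA binding proteins, other methyltransferases and sirtuins) gave similar shares. It had 77 genes with a peak, and those without one in the table used here include Trim28, Wdr5 and Uhrf1. Of its 422 tested peaks, 277 (65.6%) were above 0, the median log2 was 0.06, and 0 were called. Both TBI libraries lay above both sham libraries at 13.7% of these peaks and below at 3.79%. At an unadjusted p under 0.05, 8 were higher in TBI and 0 lower, and all 8 belonged to Bcl11a, a zinc finger partner of SWI/SNF with a role in cortical projection neurons (log2 between 0.62 and 1.00). Bcl11a was named after its values were seen.

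The libraries can also be compared by number, since each group holds 1 of each, and there the chromatin regulators did show called peaks. Of the 550 tested peaks, 63 (11.5%) were higher in number 1, against 7.17% of all peaks, and 74 (13.5%) were lower, against 9.25% of all peaks (edgeR quasi-likelihood test, adjusted p under 0.05). The calls fell in 39 and 54 overlap clusters. At all 5485 called peaks of the table, the 137 of the members included, both libraries of 1 number lay beyond both of the other, which a test of 2 libraries against 2 all but requires. The number goes with the total count over peaks, and the part of that total in the difference was not tested. With library-size scaling in place of TMM, the median of all peaks was 0.14 in place of 0.04, and that of the members 0.05 in place of -0.05. Under it 74 member peaks were higher and 40 lower, so that 64.9% in place of 46.0% of the calls were higher. The counts fell when a library was left out, to 22 higher and 14 lower without TBI library 0, 19 and 14 without TBI library 1, 18 and 22 without sham library 0, and 30 and 20 without sham library 1. In those fits the lone library of a number is assumed to vary like the others. Counts over all peaks under these other settings are not given.

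The difference went with the class and position of the peak. In the 3′ UTR, 27 of 122 peaks were higher in number 1 (22.1%, against 9.82% of all 3′ UTR peaks) and 3 were lower (2.46%, against 3.57%). In coding sequence, 35 of 414 were higher (8.45%, against 5.84%) and 67 lower (16.2%, against 13.5%), and in the 5′ UTR 1 was higher and 4 were lower of 13 (3.9% and 10.8% of all 5′ UTR peaks). The median log2 of number 1 over 0 was 0.24 in the 3′ UTR and -0.13 in coding sequence, where all peaks had 0.16 and -0.06. Of peaks spanning over 5000 bases, 28 of 84 were lower (33.3%, against 41.8% of all such peaks) and 3 higher (3.57%, against 1.95%), with a median of -0.31, against -0.43 over all such peaks. In the last 10% of the gene, 42 of 182 peaks were higher (23.1%, against 9.07% of all peaks there) and 12 lower (6.59%, against 4.15%). Between 10 and 50% of its length 9 of 120 were higher (7.50%, against 5.78%) and 27 lower (22.5%, against 17.3%), and between 50 and 90% 10 of 207 were higher (4.83%, against 7.0%) and 33 lower (15.9%, against 12.1%). The first 10% had 1 of 30 higher and 1 lower (3.33% each, against 4.83% and 6.26% of all peaks there). The medians in these 4 stretches from start to end were 0.04, -0.22, -0.13 and 0.20, so the values were not graded along the gene. In 40 of the 51 genes with both classes (78.4%), the median of the 3′ UTR peaks lay above that of the coding peaks, and the median gap was 0.43, where this held in 1957 of 3047 genes overall (64.2%, gap 0.20). A gap within a gene does not depend on the scaling of the libraries.

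**Figure D3:**
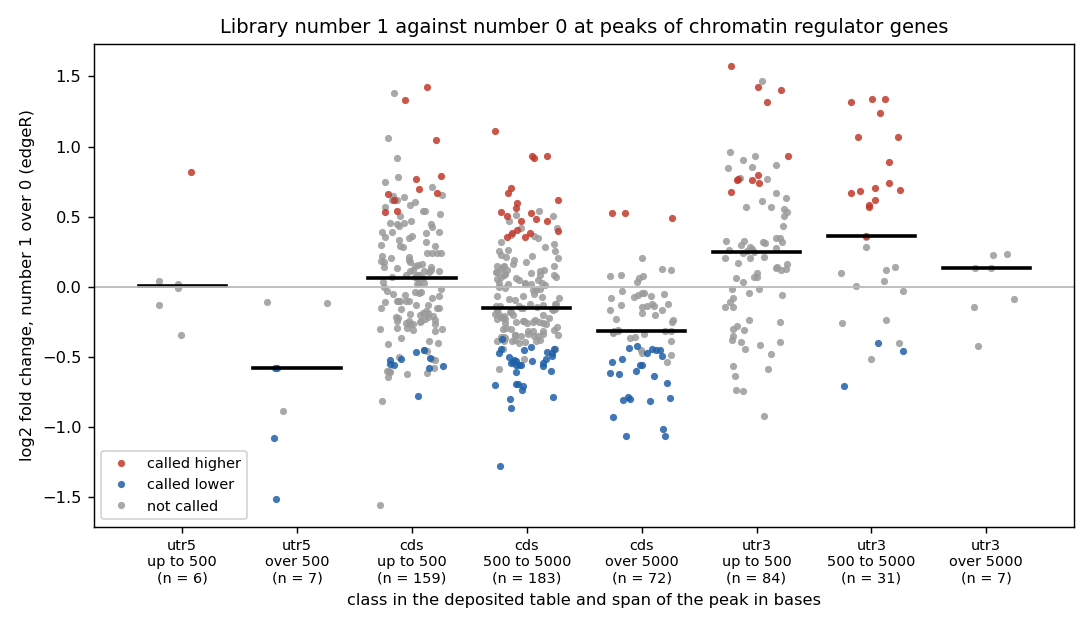
Log2 fold change of library number 1 over number 0 (vertical axis, edgeR) at each tested peak of the chromatin regulator genes, by class in the deposited table and by span in bases; red points were called higher, blue points lower, grey points were not called, and black bars are medians. Medians descend from 0.06 to -0.32 with span in coding peaks, and 3′ UTR peaks of over 500 and up to 5000 bases have the highest median, 0.36.

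Among the DNA methylation enzymes, Dnmt3a had calls both ways. Dnmt3a, the de novo DNA methyltransferase that sets non-CG methylation in neurons, had a peak over its 5′ UTR (chr12:3849708-3862020) with 20.6 and 20.8 CPM in TBI and sham libraries numbered 1, against 47.1 and 40.4 CPM in those numbered 0. Its 3′ UTR peak (chr12:3907636-3907997) had 54.0 and 50.8 CPM in number 1, against 30.7 and 29.6 CPM in number 0. The first was lower by a log2 of -1.08 (SE 0.13, adjusted p = 0.00517 in edgeR) and the second higher by 0.80 (SE 0.11, adjusted p = 0.00695). Neither overlapped. Tet3 was higher at the coding peak chr6:83368430-83368881, with 48.7 and 38.1 CPM in number 1, against 18.2 and 14.1 CPM in number 0 (log2 1.43, SE 0.18, adjusted p = 0.00584 in edgeR). Its neighbouring coding peak, given above for TBI, had a log2 of -0.11 and was not called. Tet2, another TET enzyme, had 3 peaks called higher and 1 lower. Dnmt1, which copies methylation after replication, had 81.4 and 80.1 CPM in number 1, against 98.9 and 86.8 CPM in number 0 at its strongest peak, which was not called.

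**Figure D4:**
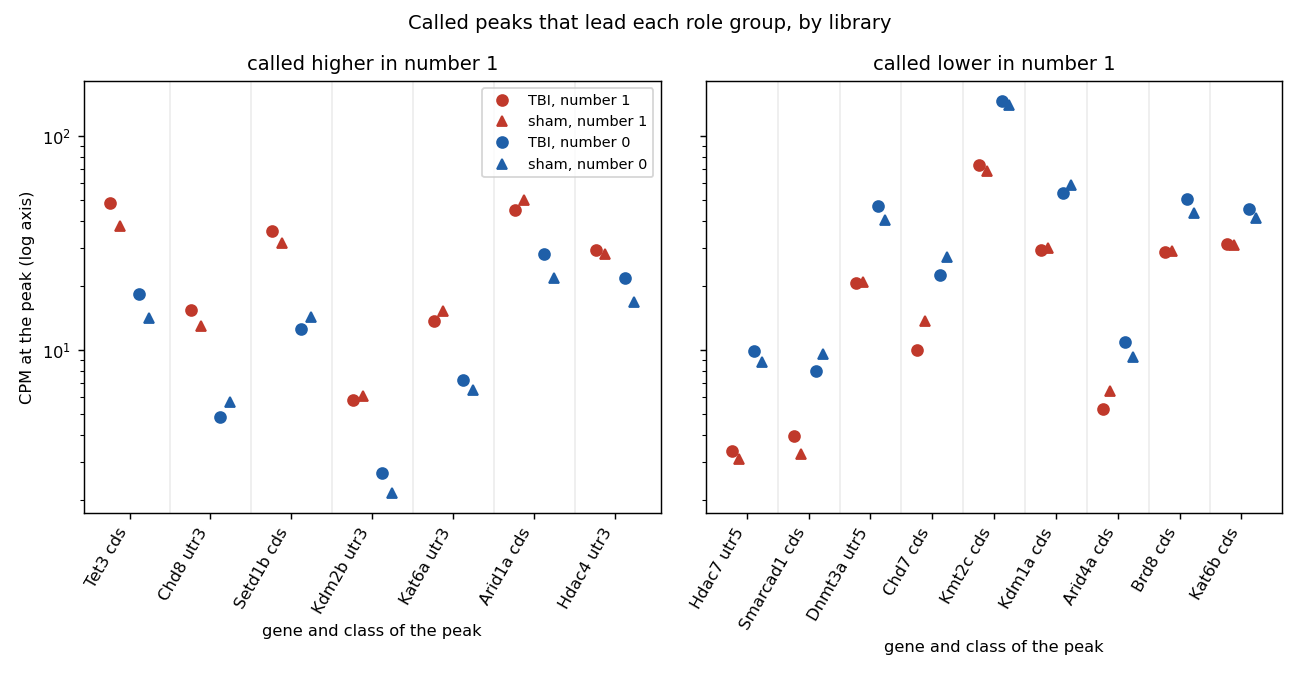
CPM (log axis) in each library at called peaks with the highest or the lowest log2 fold change of number 1 over 0 in a role group; red symbols are libraries numbered 1, blue symbols libraries numbered 0, circles TBI and triangles sham. At every peak shown the red pair is apart from the blue pair, which a call all but requires.

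H3K4 methyltransferases, which mark promoters and enhancers, had 14 peaks called each way among 106 (13.2%, where all peaks had 7.17% higher and 9.25% lower). Setd1b, a COMPASS catalytic subunit, had the highest value where no library had under 10 counts, at chr5:123158445-123158805, with 36.0 and 31.6 CPM in TBI and sham libraries numbered 1, against 12.5 and 14.3 CPM in number 0 (log2 1.33, SE 0.14, adjusted p = 0.00473 in edgeR). Kmt2c, an enhancer methyltransferase, had the lowest, at a row that spans 83578 bases (chr5:25414998-25498575), with 72.9 and 68.7 CPM in number 1, against 146 and 140 CPM in number 0 (log2 -1.01, SE 0.09, adjusted p = 0.00348). A short Kmt2c peak near the 3′ end, chr5:25299041-25299282, had 24.3 and 20.9 CPM in number 1, against 14.7 and 14.8 CPM in number 0. Kmt2e, a PHD-finger member of the family, had 4 peaks called higher and 6 lower. Its long coding peak at chr5:23482447-23493233 had 118 and 104 CPM in number 1, against 162 and 148 CPM in number 0. Kmt2d had 4 called peaks, all higher, and Setd7, the gene with a row on the opposite strand, had 3, all lower.

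Among other lysine methyltransferases, 6 of 47 peaks were higher (12.8%, against 7.17% of all peaks) and 4 lower (8.51%, against 9.25%). Setd2 had coding peaks called higher near 20% of the gene's length, such as chr9:110548414-110548775 with 20.2 and 20.8 CPM in number 1, against 11.5 and 12.5 CPM in number 0. A later coding peak was lower, with 7.81 and 7.83 CPM in number 1, against 13.5 and 12.1 CPM in number 0, so that its order ran against the general one. Kmt5a, the monomethyltransferase of lysine 20 of histone H4, had 39.4 and 38.6 CPM in number 1, against 70.0 and 66.6 CPM in number 0 at a coding peak (log2 -0.81, SE 0.10, adjusted p = 0.00584 in edgeR). Its 3′ UTR peak at chr5:124460633-124460873 had 2.88 and 3.69 CPM in number 1, against 1.59 and 0.784 CPM in number 0 (log2 1.47, SE 0.41), and missed the threshold with an adjusted p of 0.0525. The 5′ UTR peak of Kmt5b, a methyltransferase of the same residue, had a log2 of -0.89 (SE 0.42) and was not called. Setd5 had its strongest peak at 102 and 104 CPM in number 1, against 118 and 118 CPM in number 0, which was not called.

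Lysine demethylases had 4 of 71 peaks higher (5.63%, against 7.17% of all peaks) and 9 lower (12.7%, against 9.25%). Kdm2b, a JmjC demethylase that brings Polycomb complexes to CpG islands, had a 3′ UTR peak with 5.86 and 6.07 CPM in number 1, against 2.65 and 2.14 CPM in number 0 (log2 1.32, SE 0.24, adjusted p = 0.0138 in edgeR), a call lost without TBI library 1 (0.0608), sham library 1 (0.0557) or sham library 0 (0.0591). Kdm1a, the flavin-dependent demethylase LSD1, had its single peak, chr4:136582098-136593114, at 29.4 and 30.1 CPM in number 1, against 54.3 and 59.0 CPM in number 0 (log2 -0.93, SE 0.11, adjusted p = 0.00529). The strongest peak of Kdm5a, an H3K4 demethylase, had 101 and 102 CPM in number 1, against 82.6 and 91.2 CPM in number 0 and was not called.

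Of 28 acetyltransferase peaks, 8 were higher in number 1 (28.6%, against 7.17% of all peaks) and 1 lower (3.57%, against 9.25%). The median log2 was 0.42, and all 9 calls belonged to Kat6a and Kat6b, which encode catalytic subunits of MOZ and MORF complexes. Kat6a had 13.7 and 15.2 CPM in number 1, against 7.28 and 6.49 CPM in number 0 at its 3′ UTR peak (log2 1.07, SE 0.16, adjusted p = 0.00867 in edgeR), and 301 and 296 CPM, against 221 and 210 CPM, at its strongest coding peak. Kat6b had the call to the other side, 31.3 and 31.0 CPM in number 1, against 45.3 and 41.1 CPM in number 0 at chr14:21661511-21664521. This call was lost in each fit without 1 library (adjusted p 0.0711 to 0.153 in edgeR), with library-size scaling (0.0668) and with 1 row per overlap cluster (0.0595). Of 24 deacetylase peaks, 2 were higher (8.33%, against 7.17% of all peaks) and 6 lower (25%, against 9.25%), with a median of -0.25. Hdac7, a class IIa enzyme, had 3.38 and 3.11 CPM in number 1, against 9.86 and 8.77 CPM in number 0 at its 5′ UTR peak chr15:97811536-97814737, the lowest log2 among the called members (-1.52, SE 0.19, adjusted p = 0.00598). Hdac4, of the same class, had 29.4 and 28.1 CPM in number 1, against 21.7 and 16.8 CPM in number 0 at its 3′ UTR peak (log2 0.58, SE 0.15, adjusted p = 0.0446), a call lost in each fit without 1 library (adjusted p 0.0505 to 0.171). Hdac8 was lower by -0.79 at the coding row chrX:102284906-102307675, with 67.7 and 59.9 CPM, against 113 and 108 CPM, while the peak at its start whose sequence is printed above had a log2 of 0.14 and was not called. Hdac2 had 136 and 134 CPM in number 1, against 134 and 111 CPM in number 0 at its only peak.

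CHD remodellers held several of the highest 3′ UTR values. Chd9 had 84.0 and 73.6 CPM in number 1, against 31.9 and 30.4 CPM in number 0 at its 3′ UTR peak chr8:91051278-91052088 (log2 1.34, SE 0.12, adjusted p = 0.00314 in edgeR), and its coding peaks, with log2 values between -0.41 and 0.07, were not called. Chd8, a CHD family member mutated in autism, had 15.4 and 12.9 CPM in number 1, against 4.85 and 5.70 CPM in number 0 at chr14:52198420-52198840 (log2 1.42, SE 0.18, adjusted p = 0.00615). Chd7 had both kinds, with 9.25 and 10.3 CPM in number 1, against 3.71 and 4.14 CPM in number 0 at a 3′ UTR peak, and 9.97 and 13.6 CPM, against 22.3 and 27.2 CPM, at the coding row chr4:8710536-8751512 (log2 -1.07, SE 0.19, adjusted p = 0.0135). The coding call of Chd7 was lost without TBI library 1 (adjusted p 0.0539 in edgeR) or sham library 0 (0.0632). The groups by number did not overlap at the called peaks of these 3 genes, which holds at every called peak of the table. Chd2 was called at 5 coding peaks, all lower, and Chd6 at 3, all higher, among them a long coding row with 260 and 260 CPM in number 1, against 188 and 182 CPM in number 0. Over the family, 9 of 91 peaks were higher (9.89%, against 7.17% of all peaks) and 12 lower (13.2%, against 9.25%).

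Of 64 SWI/SNF peaks, 6 were higher in number 1 (9.38%, against 7.17% of all peaks) and 8 lower (12.5%, against 9.25%). Arid1a, a DNA-binding subunit, had 45.1 and 50.1 CPM in number 1, against 28.1 and 21.7 CPM in number 0 at chr4:133720566-133722855 (log2 0.93, SE 0.15, adjusted p = 0.0106 in edgeR). Smarcc2, a scaffold subunit, was lower at chr10:128469103-128474729, with 212 and 211 CPM in number 1, against 296 and 281 CPM in number 0, and higher at chr10:128483261-128484410, with 398 and 398 CPM, against 331 and 279 CPM. The ISWI and other SNF2 ATPases space nucleosomes or act in DNA repair. They had 0 of 19 peaks higher (against 7.17% of all peaks) and 7 lower (36.8%, against 9.25%), with a median of -0.37. Their rows had a median span of 2621 bases, against 330 bases over all peaks. Of all peaks spanning over 500 to 5000 bases 11.1% were lower, and of those over 5000 bases 41.8%. Smarcad1 had 3.96 and 3.26 CPM in number 1, against 7.96 and 9.55 CPM in number 0 (log2 -1.28, SE 0.21, adjusted p = 0.0110), a call lost without sham library 0 (0.0503). Smarca5, the ISWI ATPase SNF2H, was lower at 4 peaks, of which the strongest had 52.2 and 55.7 CPM in number 1, against 73.6 and 73.6 CPM in number 0, and 1 was a 3′ UTR row. Together with Smarca4, which encodes the BRG1 ATPase and was lower at 2 overlapping 3′ UTR rows, it holds the 3 member 3′ UTR calls on the lower side.

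Bromodomain proteins had 4 of 26 peaks higher (15.4%, against 7.17% of all peaks) and 5 lower (19.2%, against 9.25%). Brd8, a subunit of the NuA4 acetyltransferase complex, had 28.7 and 29.0 CPM in number 1, against 50.6 and 43.4 CPM in number 0 (log2 -0.70, SE 0.12, adjusted p = 0.0126 in edgeR), a call lost without TBI library 1 (0.0639) or TBI library 0 (0.0711). Among other ARID proteins, Arid4a, which binds the retinoblastoma protein, had a coding peak with 5.29 and 6.40 CPM in number 1, against 10.9 and 9.27 CPM in number 0 (log2 -0.79, SE 0.19, adjusted p = 0.0360). The call was lost in each fit without 1 library (adjusted p 0.0632 to 0.186 in edgeR) and with library-size scaling (0.0558). The strongest Arid4a peak had 279 and 253 CPM, against 252 and 237 CPM, and was not called. Under library-size scaling the role medians lay about as far above their TMM values as the median of all peaks did, so that those of the DNA methylation enzymes and other lysine methyltransferases turned from below to above 0, at 0.08 and 0.06, and that of the bromodomain proteins came to 0.00.

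**Figure D5:**
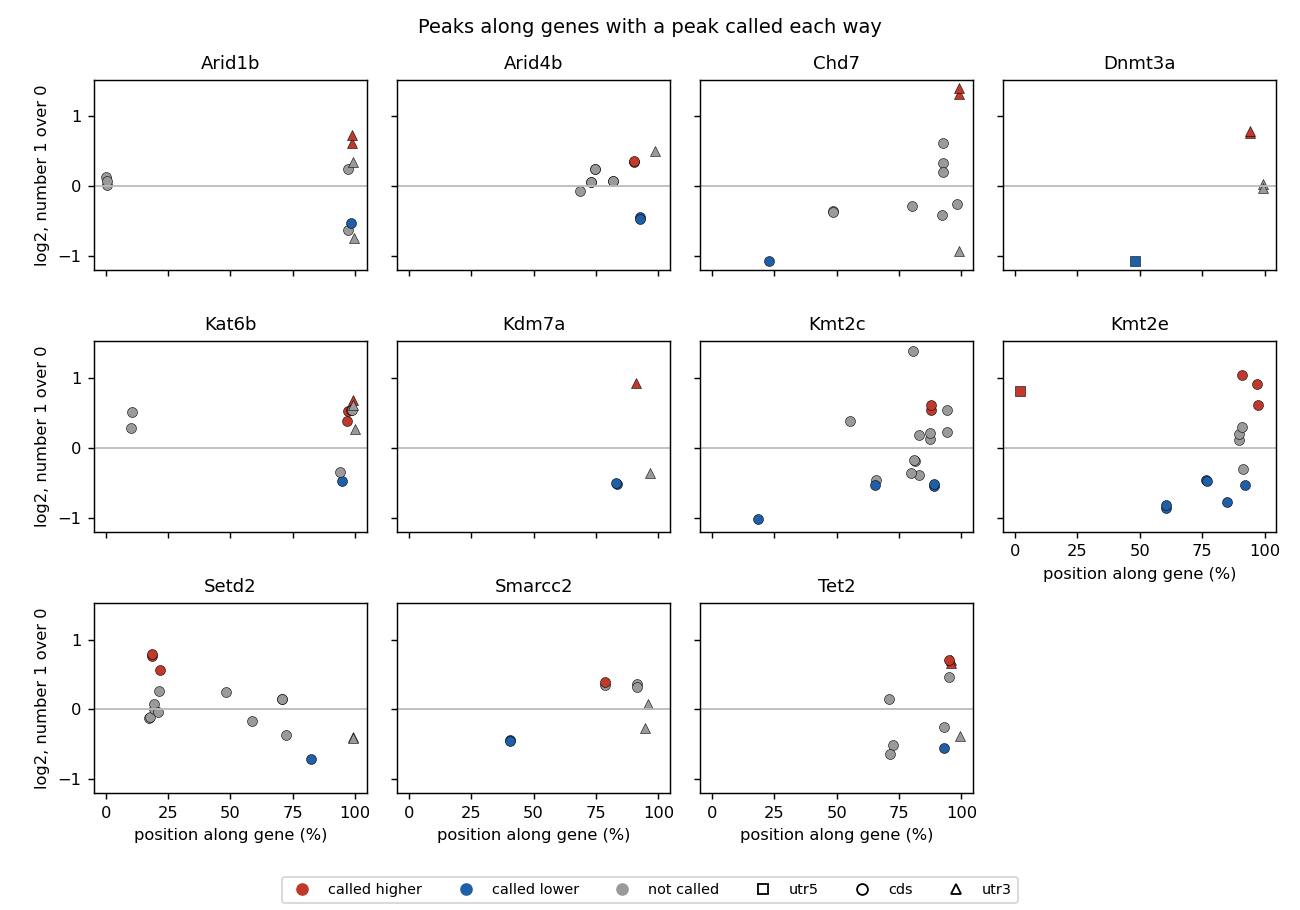
Log2 fold change of number 1 over number 0 at the tested peaks of genes with a peak called each way, against the position of the peak's centre along the RefSeq span of the gene (0% is the start, 100% the end); squares, circles and triangles are 5′ UTR, coding and 3′ UTR peaks, red was called higher, blue lower and grey not called. Dnmt3a, Chd7 and Kdm7a have their called lower peaks before their called 3′ UTR peaks, and Setd2 has the opposite order.

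Genes with calls both ways included Arid1b, Arid4b, Chd7, Dnmt3a, Kat6b, Kdm7a, Kmt2c, Kmt2e, Setd2, Smarcc2 and Tet2. Calls higher in number 1 occurred in 27 genes (30.3%, against 12.2% of all genes) and lower calls in 39 (43.8%, against 18.5%), but a member gene holds more rows than most genes, with a median of 5 against 2. The other chromatin genes listed above had 41 of 422 peaks higher (9.72%, against 7.17% of all peaks) and 58 lower (13.7%, against 9.25%). Among them the methyl-DNA binding proteins had 11 of 33 peaks higher (33.3%) and 7 lower (21.2%), with a median log2 of 0.39.

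The authors' deposited table gives its own log2 value per peak. Across the 557 member peaks it followed the ratio of number 1 to number 0 in TBI over that ratio in sham (Pearson r = 0.999 over peaks, many of which share reads), and its correlation with TBI over sham was -0.40. A higher deposited value thus means a higher ratio of number 1 to number 0 in TBI than in sham. That is a different quantity from the TBI over sham fold change tested above. Of 277 peaks in the deposited list of higher values 0 were members, and of 146 in the list of lower values 1 was, a coding peak of Setd1b at chr5:123160418-123160689. In the authors' deposited table it had a log2 of -2.54, a p of 0.0193 and an adjusted p of 0.998. Its counts were 27 in TBI library 1 and 23 in TBI library 0, against 65 in sham library 1 and 10 in sham library 0. By the authors' deposited table, a p under 0.05 was given to 1 member peak (0.18%), against 1.65% of all peaks, and 0 had an adjusted p under 0.05.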

How the data were processed

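The study sequenced 2 TBI and 2 sham libraries of mouse cortex, all labelled anti-m6A. Per the submitters' processing notes, STAR, DESeq2 and GRCm39 were used; no tool for calling peaks or counting reads, and no strand setting, is named there. Positions match RefSeq spans of GRCm38.p6 (546 of 554 member peaks), so they are read as GRCm38. The authors deposited whole-number read counts per peak, not normalized, and a log2 value with p-value and adjusted p-value from an unnamed test; class and peak set are as deposited.

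Counts were tested with edgeR 4.0.16 and limma 3.58.1 in R 4.3.3 (TMM, filterByExpr, quasi-likelihood F-test on 2 residual degrees of freedom, Benjamini-Hochberg over all peaks tested, calls at adjusted p under 0.05). SE is the log2 fold change divided by the square root of F. DESeq2 1.42.0, other scalings, filters, blocks and leaving out libraries were alternatives. Fits with the block, or with the group added, leave 1 residual degree of freedom. The code was tested on simulated data. Tables and figures used Python 3.11.15, pandas 2.3.3, NumPy 2.4.6 and matplotlib 3.10.9.

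Members, roles and lists were chosen with earlier results of these data known. Named peaks were, per role, the smallest p for TBI against sham, the highest and lowest log2 fold change by number with at least 10 counts in every library, the highest mean CPM, and members of the deposited lists. Others were named after their values were seen, as examples. A gene that this rule named is not reported here.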

Additional observations from a re-analysis of the deposited data

Results flagged for a closer look

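At 7 of the named peaks the TBI and sham pairs moved in opposite directions between the numbers, and the difference was not tested. The values are the log2 of number 1 over 0, which is -0.85 in TBI, against 1.68 in sham at the Setd1b coding peak in the deposited list, on 10 to 65 counts per library. The Arid1b 3′ UTR peak had 0.80 in TBI, against -1.50 in sham, and the Setd1a 5′ UTR peak 0.44 in TBI, against -0.42 in sham. The Smarcad1 coding peak given for TBI had -0.64 in TBI, against 0.24 in sham, the Kdm6a peak -0.52 in TBI, against 0.12 in sham, and the Brd3 peak -0.29 in TBI, against 0.045 in sham. The Smarcal1 coding peak, the highest of the ISWI and other SNF2 group and not called, had 0.26 in TBI, against -0.011 in sham, with 24.2 and 20.2 CPM in TBI libraries 1 and 0, against 23.0 and 23.2 CPM in sham libraries 1 and 0. The peaks of Arid1b, Setd1a, Smarcad1, Kdm6a and Brd3 were named for the smallest p of TBI against sham in their role. Groups of 2 libraries allow no search for single outlying libraries.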

How the results depend on the processing

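For TBI against sham, the 0 calls stayed 0 under DESeq2, library-size scaling, no filter, a minimum of 10 counts, 1 row per overlap cluster and each fit without 1 library (range 0 to 0); with 2 libraries a group, a count of 0 says little about stability. With the library number as a replicate block, 36 member peaks were higher (background 5.42%) and 10 lower (background 5.22%), and 6 of the named peaks passed, Arid5a, Chd5, Tet3, Brd3, Hdac9 and Setd3; same-numbered libraries deviated together (r = 0.43 across 33415 peaks), but with 2 pairs of unstated origin the numbers were not taken as pairs. For number 1 against 0, adding the group gave 101 higher and 160 lower, library-size scaling 40 lower, 1 row per overlap cluster 36 and 37 on fewer rows, and the fits without 1 library 18 to 30 higher and 14 to 22 lower, on fewer samples. At the named peaks, 136 values of called peaks by number kept the call and 28 lost it, while of values at uncalled peaks 43 stayed uncalled and 4 became called by number, and 99 stayed uncalled and 6 became called for TBI against sham. The direction turned in 0. Counts over all peaks in the other fits by number are not given. Whether members moved differently from other peaks thus cannot be read from these counts. The 2 libraries a group and the lack of a library labelled as input limit all of this, and peaks with few counts have wide errors.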
